A study of Mus musculus with 12 samples.

Results

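*Cpt1a*, *Cpt2*, *Acadm*, *Acadl*, *Hadh*, *Ehhadh*, *Acat1* and *Bdh1* encode enzymes of fatty acid oxidation and ketogenesis, and their mRNA levels were compared between WT and *Cdk1* Liv-/- mice in isolated hepatocytes and in whole liver. The 8 genes were chosen by name, with earlier results of these data known, and their symbols were matched to the 47069 genes listed. Their counts beside the shares of all genes are therefore descriptive. All 8 were among the 17386 genes tested, which had a mean of at least 0.1 FPKM (fragments per kilobase of transcript, scaled to the mapped fragments of the library) over the 12 libraries.

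Polyadenylated RNA was sequenced from mice at P14. Hepatocytes isolated from the liver and whole liver were sampled in each genotype, giving 4 groups of 3 libraries. *Cdk1* Liv-/- mice carry floxed *Cdk1* alleles (*Cdk1* flox/flox) and Cre recombinase under the albumin promoter (Albumin-Cre). Whether the WT mice carried a floxed allele or Cre is not given in the sources used here. According to the study's methods the mice were male and were fed a standard diet. The albumin promoter drives Cre in hepatocytes and their precursors, so liver cells outside that lineage keep *Cdk1*. Whole liver is a mixture of both, and which other cells descend from these precursors was not examined. 1 FPKM on 1 kb of transcript stood for an estimated 34.9 to 49.9 reads, depending on the library. For *Cpt2*, the least abundant of the 8 genes, this gives at least 499 reads in every library, when all of its reads are placed on its shortest coding transcript of 387 bases. Counting error was therefore small for these genes, and the spread between libraries set the precision.

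In mitochondria, long-chain fatty acids enter as carnitine esters through *Cpt1a* and *Cpt2* and are shortened in cycles of dehydrogenation, hydration, a further dehydrogenation and thiolysis, which release acetyl-CoA. Liver, unlike most other tissues, turns much of this acetyl-CoA into the ketone bodies acetoacetate and beta-hydroxybutyrate and exports them to other organs. The pathway is active in the liver of suckling rodents, since milk supplies mostly fat, and many of its genes are targets of the nuclear receptor encoded by *Ppara*.

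*Cdk1* itself was at 27.9, 20.4 and 28.2 FPKM in WT hepatocytes and at 9.68, 11.8 and 6.87 FPKM in *Cdk1* Liv-/- hepatocytes. In whole liver it was at 25.3, 22.7 and 21.5 FPKM in WT and at 11.7, 12.1 and 14.2 FPKM in *Cdk1* Liv-/-. Within each compartment the highest *Cdk1* Liv-/- value was lower than the lowest WT value, in the direction of the labels. The value counts reads over the whole gene and not the floxed exon alone.

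2 libraries stood apart from their group. In *Cdk1* Liv-/- whole liver replicate 3, *Xist*, an RNA of female cells, reached 158 FPKM while the Y-linked genes checked added up to 0, although the methods state that only males were used. WT hepatocyte replicate 3 was nearer to the mean of WT whole liver, with a root mean square difference of 0.343 on the log2 scale, than to the mean of the other WT hepatocyte libraries, at 0.448. For WT hepatocyte replicates 1 and 2 the distance was smaller to the other WT hepatocytes (0.349 and 0.388) than to WT whole liver (0.473 and 0.496). Counts of the 8 enzymes that passed are therefore also given without these 2 libraries.

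In isolated hepatocytes, 4 of the 8 genes passed the test and all 4 were lower in *Cdk1* Liv-/-, namely *Acat1*, *Hadh*, *Bdh1* and *Acadl*. A gene passed at an adjusted p of at most 0.1 in limma, and of all 17386 genes tested 6.61% passed as lower and 12.1% as higher, the direction in which 0 of the 8 genes passed (with an unadjusted p under 0.05, the count was 4 of 8, all lower). The median log2 fold change of the 8 genes was -0.37, against 0.049 for all genes tested. In whole liver 2 genes passed as lower, *Acat1* and *Hadh*, and 1 as higher, *Ehhadh*, where 7.53% of all genes passed as lower and 38.0% as higher. The median of the 8 genes in whole liver was -0.0022, against 0.18 for all genes. The count was 4 without WT hepatocyte replicate 3, and 3 in whole liver without *Cdk1* Liv-/- replicate 3. These are bulk samples, so fewer cells of a type and less RNA per cell cannot be told apart.

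The size of the shift over all genes in whole liver, and the share of higher genes among those that passed, depended on the scaling. Dividing FPKM by median-ratio size factors shifted the median of all genes by -0.17 in whole liver, to 0.013, and by -0.050 in hepatocytes. The share of higher genes among those that passed was 83.5% in whole liver as deposited and 52.2% with size factors, and in hepatocytes 64.7% and 54.7%. For the difference between the compartments, described further on, the shift was 0.12 and the shares were 23.9% and 52.7%. Relative to the median of all genes, the 8 enzymes had a median of -0.42 in hepatocytes and -0.18 in whole liver. With size factors, the same 4 genes passed in hepatocytes, and in whole liver *Acadl* passed as lower in addition to *Acat1*, *Hadh* and *Ehhadh*. Of all genes, 8.13% then passed as lower and 9.83% as higher in hepatocytes, and 16.4% and 17.9% in whole liver.

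**Figure D1:**
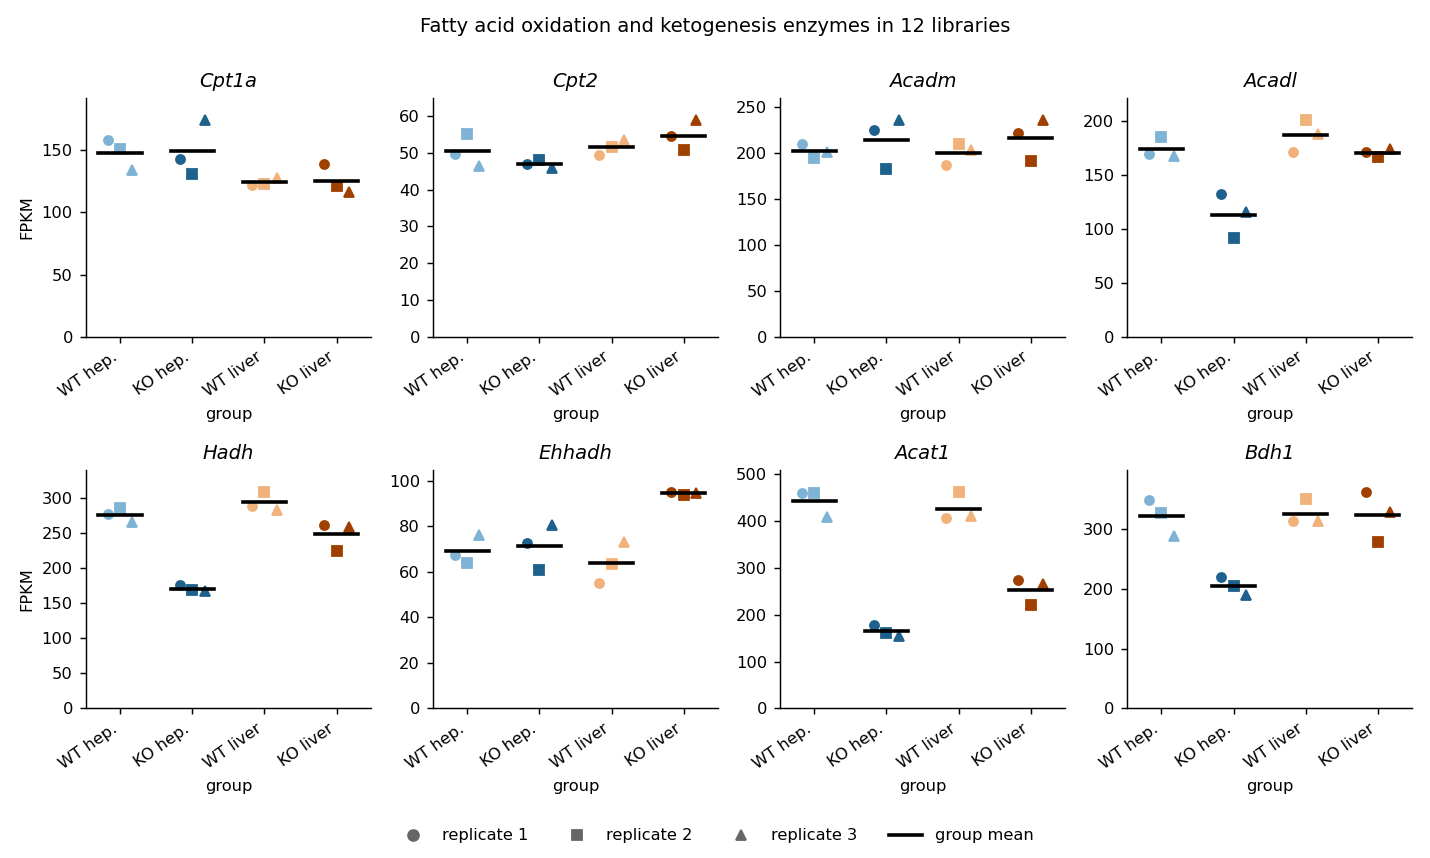
FPKM of the 8 enzyme genes (vertical axes, from 0) in the 4 groups (horizontal axes, KO stands for *Cdk1* Liv-/-), with 1 symbol per library, its shape giving the replicate, and a line at the group mean of 3 libraries. *Acat1*, *Hadh*, *Bdh1* and *Acadl* are lower in all 3 *Cdk1* Liv-/- hepatocyte libraries than in the WT ones, and *Ehhadh* is higher in all 3 *Cdk1* Liv-/- whole liver libraries.

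*Acat1* (ENSMUSG00000032047, chr9:53580522-53610382, minus strand of GRCm38) encodes the mitochondrial acetoacetyl-CoA thiolase, which joins acetyl-CoA units at the start of ketogenesis and also acts in ketone body use and isoleucine breakdown. Its level was 459.0, 459.4 and 408 FPKM in WT hepatocytes and 178, 161 and 155 FPKM in *Cdk1* Liv-/- hepatocytes. In whole liver it was 406, 463 and 411 FPKM in WT and 274, 220.0 and 265 FPKM in *Cdk1* Liv-/-. The genotypes did not overlap in either compartment, and the *Cdk1* Liv-/- hepatocytes were the lowest of the 12 libraries. The mean in *Cdk1* Liv-/- was 37.3% of that in WT in hepatocytes (442 ± 29.4 against 165 ± 12.2 FPKM, SD, n = 3 each) and 59.3% in whole liver (427 ± 31.6 against 253 ± 29.0 FPKM, SD, n = 3 each). The log2 fold change was -1.42 in hepatocytes (95% confidence interval -1.64 to -1.20, adjusted p = 0.00128 from limma) and -0.76 in whole liver (-1.02 to -0.50, adjusted p = 0.0058). *Acat1* was the only one of the 8 genes with a fall of more than 1 on the log2 scale. Both calls held in all 16 alternatives run for each compartment, where the log2 fold change lay between -1.50 and -1.38 in hepatocytes and between -0.98 and -0.66 in whole liver.

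*Bdh1* (ENSMUSG00000046598, chr16:31422280-31458901, plus strand) encodes the dehydrogenase that interconverts acetoacetate and beta-hydroxybutyrate in mitochondria. It was at 349, 326 and 288 FPKM in WT hepatocytes and at 219, 204 and 190.2 FPKM in *Cdk1* Liv-/- hepatocytes, with no overlap between the genotypes. In whole liver, the WT libraries were at 313, 349.8 and 313 FPKM and the *Cdk1* Liv-/- libraries at 362, 278 and 328 FPKM. There the *Cdk1* Liv-/- libraries lay on both sides of the WT libraries. The log2 fold change was -0.65 in hepatocytes (95% confidence interval -0.89 to -0.40, adjusted p = 0.0142 from limma), from 321 ± 30.8 to 204 ± 14.4 FPKM (SD, n = 3 each). In whole liver it was -0.02 (-0.29 to 0.26, adjusted p = 0.921), with means of 325 ± 21.3 and 323 ± 42.2 FPKM (SD, n = 3 each). The hepatocyte call held in all 16 alternatives, with adjusted p-values up to 0.0580.

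*Hadh* (ENSMUSG00000027984, chr3:131233419-131272101, minus strand) encodes the mitochondrial hydroxyacyl-CoA dehydrogenase, the second dehydrogenation of the cycle for medium and short chains. It was at 277, 286 and 265 FPKM in WT hepatocytes and at 176, 168 and 167 FPKM in *Cdk1* Liv-/- hepatocytes. The whole liver values were 289, 309 and 282 FPKM in WT and 261, 224 and 258 FPKM in *Cdk1* Liv-/-. The genotypes did not overlap in either compartment, and the gap was narrower in whole liver. *Hadh* fell by 0.69 on the log2 scale in hepatocytes, to 61.8% of WT (95% confidence interval -0.86 to -0.53, adjusted p = 0.00362 from limma), and by 0.25 in whole liver, to 84.5% of WT (-0.44 to -0.05, adjusted p = 0.0608). The hepatocyte call held in all 16 alternatives. The whole liver call was lost without WT liver replicate 1, 2 or 3 (adjusted p = 0.140, 0.163 and 0.102), and it held without *Cdk1* Liv-/- liver replicate 3 (adjusted p = 0.0939). With size factors it was -0.47 (adjusted p = 0.0151).

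*Acadl* (ENSMUSG00000026003, chr1:66830839-66863277, minus strand) encodes the long-chain acyl-CoA dehydrogenase, one of the flavoenzymes that open each cycle. Its values were 169.6, 185 and 168 FPKM in WT hepatocytes and 133, 91.4 and 115 FPKM in *Cdk1* Liv-/- hepatocytes. The genotypes did not overlap, and *Cdk1* Liv-/- replicate 2 was the lowest library. In whole liver, *Acadl* was at 171, 201 and 188 FPKM in WT and at 171, 167 and 173 FPKM in *Cdk1* Liv-/-, with overlap. The log2 fold change was -0.64 in hepatocytes (95% confidence interval -0.98 to -0.29, adjusted p = 0.0413 from limma) and -0.13 in whole liver (-0.30 to 0.04, adjusted p = 0.196). The hepatocyte call was the least stable of the 4, being lost without WT hepatocyte replicate 1 or 2 or *Cdk1* Liv-/- hepatocyte replicate 3 (adjusted p = 0.115, 0.108 and 0.101). It held without WT hepatocyte replicate 3 (adjusted p = 0.0924). In whole liver with size factors the log2 fold change was -0.35 and passed (adjusted p = 0.0150).

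*Acadm* (ENSMUSG00000062908, chr3:153922357-153944632, minus strand), the medium-chain counterpart of *Acadl*, was at 210.1, 195 and 201 FPKM in WT hepatocytes and at 225, 183 and 236 FPKM in *Cdk1* Liv-/- hepatocytes. In WT and *Cdk1* Liv-/- whole liver the values were 187, 210.3 and 204 FPKM and 222, 191 and 236 FPKM. The genotypes overlapped in both compartments. The log2 fold change was 0.08 in hepatocytes (95% confidence interval -0.19 to 0.35, adjusted p = 0.684 from limma) and 0.11 in whole liver (adjusted p = 0.407). Without *Cdk1* Liv-/- liver replicate 2 the whole liver value was 0.19 and passed (adjusted p = 0.0988), while with size factors it was -0.11.

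*Cpt1a* (ENSMUSG00000024900, chr19:3322334-3385733, plus strand) encodes the carnitine palmitoyltransferase of the outer mitochondrial membrane, the regulated entry step that malonyl-CoA inhibits. It was at 158, 151 and 134 FPKM in WT hepatocytes, at 143, 131 and 174 FPKM in *Cdk1* Liv-/- hepatocytes, at 122, 123 and 128 FPKM in WT whole liver and at 139, 121 and 116 FPKM in *Cdk1* Liv-/- whole liver. *Cdk1* Liv-/- libraries lay both above and below the WT libraries in each compartment. The log2 fold change was 0.01 in hepatocytes (95% confidence interval -0.30 to 0.32, adjusted p = 0.966 from limma) and 0.01 in whole liver (adjusted p = 0.915). With size factors these values were -0.07 and -0.21, and neither passed.

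*Cpt2* (ENSMUSG00000028607, chr4:107903981-107923610, minus strand), the transferase of the inner membrane that returns the acyl group to CoA, had the lowest levels of the 8 genes. It ranged from 45.7 to 55.0 FPKM over the 6 hepatocyte libraries and from 49.5 to 58.9 FPKM over the 6 whole liver libraries. The group means were 50.3 ± 4.40 FPKM for WT hepatocytes and 46.9 ± 1.13 FPKM for *Cdk1* Liv-/- hepatocytes, and 51.5 ± 1.96 and 54.7 ± 4.14 FPKM in whole liver (SD, n = 3 each). The log2 fold changes were -0.10 (95% confidence interval -0.30 to 0.10, adjusted p = 0.476 from limma) and 0.08 (adjusted p = 0.381). The carnitine-acylcarnitine carrier *Slc25a20*, which links both transferases across the inner membrane, had a log2 fold change of -0.15 in hepatocytes (adjusted p = 0.411). In whole liver its log2 fold change was 0.24 (adjusted p = 0.0295), a call that was lost with size factors, where it was 0.02, and without WT liver replicate 1.

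*Ehhadh* (ENSMUSG00000022853, chr16:21761287-21787807, minus strand) encodes the bifunctional enzyme of peroxisomes, which carries out hydration and the second dehydrogenation there and is a classical target of *Ppara*. It was at 67.3, 63.9 and 76.3 FPKM in WT hepatocytes and at 72.6, 60.7 and 80.6 FPKM in *Cdk1* Liv-/- hepatocytes, with overlap. The whole liver libraries had 55.2, 63.5 and 73.0 FPKM in WT and 95.2, 93.9 and 94.5 FPKM in *Cdk1* Liv-/-. All 3 *Cdk1* Liv-/- whole liver libraries lay above every other library. *Ehhadh* rose by 0.57 on the log2 scale in whole liver, to 148% of WT (95% confidence interval 0.32 to 0.82, adjusted p = 0.0115 from limma). The rise held in all 16 alternatives, with a log2 fold change of 0.35 to 0.67, and was 0.57 without *Cdk1* Liv-/- liver replicate 3 (adjusted p = 0.0398). In hepatocytes the log2 fold change was 0.04 (-0.27 to 0.34, adjusted p = 0.875), and -0.04 with size factors.

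**Figure D2:**
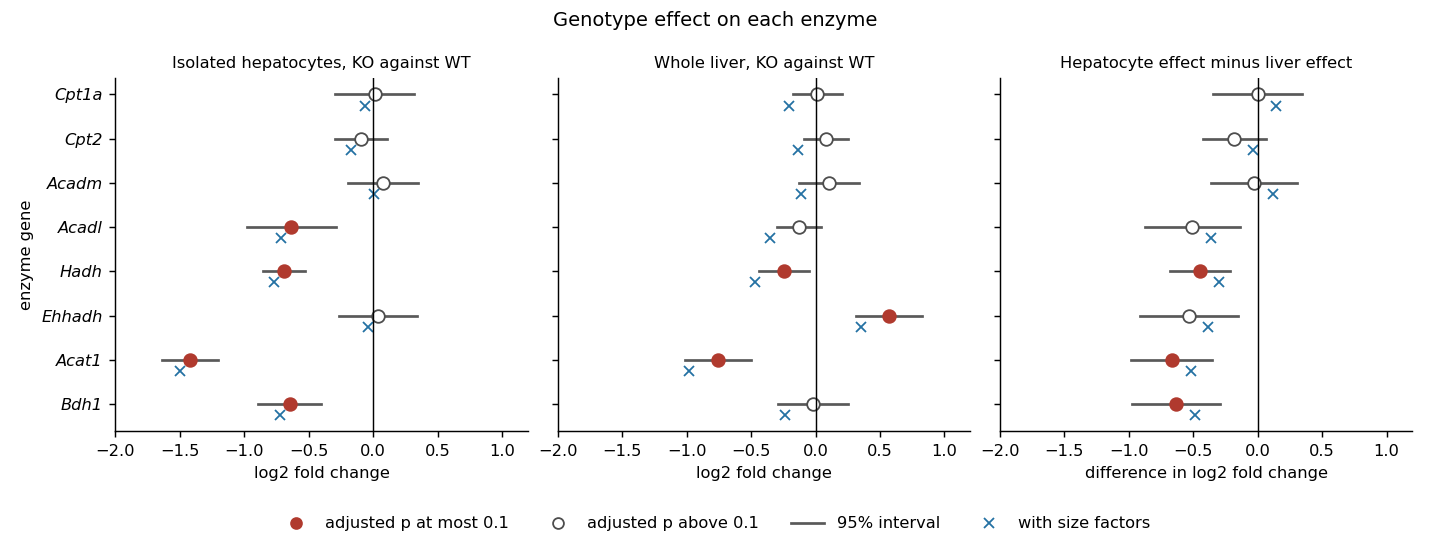
Log2 fold change between *Cdk1* Liv-/- (KO) and WT (horizontal axes) of each of the 8 enzyme genes (vertical axis) in isolated hepatocytes and whole liver, and the difference between the compartments, with bars for the 95% confidence interval from limma (3 libraries per group), filled circles for an adjusted p of at most 0.1 and crosses for the value with size factors. The values for the compartments run from -1.42 for *Acat1* in hepatocytes to 0.57 for *Ehhadh* in whole liver.

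The order of the 8 genes by their FPKM differed between the genotypes. In WT hepatocytes the order from the highest mean was *Acat1*, *Bdh1*, *Hadh*, *Acadm*, *Acadl*, *Cpt1a*, *Ehhadh* and *Cpt2*, with no overlap between neighbours, and in WT whole liver it was the same, with overlap of *Acadm* and *Acadl*. In *Cdk1* Liv-/- hepatocytes *Acadm* had the highest mean, at 215 ± 28.4 FPKM, followed by *Bdh1*, *Hadh*, *Acat1*, *Cpt1a*, *Acadl*, *Ehhadh* and *Cpt2*. There, neighbours from *Acadm* to *Acadl* overlapped, apart from *Bdh1* and *Hadh*. *Acat1* moved from position 1 to position 4. In *Cdk1* Liv-/- whole liver *Bdh1* came first, at 323 ± 42.2 FPKM (SD, n = 3), and *Acat1*, *Hadh* and *Acadm* followed with overlapping libraries.

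The genotype effect was then compared between the compartments by an interaction test with all 12 libraries, as the log2 fold change in hepatocytes minus that in whole liver. The difference passed for 3 of the 8 genes, all more negative in hepatocytes, where 7.49% of all genes passed as more negative and 2.35% as more positive. It was -0.67 for *Acat1* (95% confidence interval -0.98 to -0.35, adjusted p = 0.0477 from limma), -0.45 for *Hadh* (-0.68 to -0.22, adjusted p = 0.0562) and -0.63 for *Bdh1* (-0.97 to -0.29, adjusted p = 0.0602). *Ehhadh*, at -0.53 (-0.91 to -0.16, adjusted p = 0.1004), and *Acadl*, at -0.51 (-0.87 to -0.14, adjusted p = 0.105), were just short of the threshold. For *Cpt2*, *Acadm* and *Cpt1a* the differences were -0.18, -0.03 and -0.0015, with adjusted p-values from 0.354 to 0.996.

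These differences rested on the scaling and on some libraries. With size factors, 0 of the 8 genes passed in limma, and 3 had an unadjusted p under 0.05. The differences were then -0.52 for *Acat1* (adjusted p = 0.109), -0.49 for *Bdh1* (adjusted p = 0.140) and -0.30 for *Hadh* (adjusted p = 0.194). With every library brought to 1 common total, 5 passed, and the median of the 8 genes was -0.49 against -0.12 for all genes. The share of all genes that passed with this scaling is not given here, so the count of 5 is not read as a result about the enzymes. Without *Cdk1* Liv-/- liver replicate 3, *Acat1* passed (adjusted p = 0.0884), while *Hadh* and *Bdh1* did not (adjusted p = 0.104 and 0.107), and without WT hepatocyte replicate 3 all 3 passed. Without WT liver replicate 1 none of the 3 passed (adjusted p = 0.136 for *Acat1*, 0.147 for *Hadh* and 0.156 for *Bdh1*), and without WT liver replicate 3 *Hadh* and *Bdh1* did not (adjusted p = 0.111 and 0.115). *Bdh1* also lost its call without WT hepatocyte replicate 1 (adjusted p = 0.103) or *Cdk1* Liv-/- hepatocyte replicate 3 (adjusted p = 0.101). *Acadl* passed without *Cdk1* Liv-/- hepatocyte replicate 1 (adjusted p = 0.0732), and *Ehhadh* without WT hepatocyte replicate 2 or *Cdk1* Liv-/- hepatocyte replicate 3 (adjusted p = 0.0765 and 0.0923).

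The compartments were also compared within each genotype. Between WT hepatocytes and WT whole liver, 0 of the 8 genes passed in limma and 1 had an unadjusted p under 0.05. Of all genes tested, 0.104% passed as higher and 1.42% as lower in WT hepatocytes. *Cpt1a* had the value farthest from 0, at 0.25 (adjusted p = 0.180), and passed without WT hepatocyte replicate 3 (0.32, adjusted p = 0.0428). Between *Cdk1* Liv-/- hepatocytes and *Cdk1* Liv-/- whole liver, 6 of the 8 genes passed as lower in hepatocytes, where 35.9% of all genes passed as lower and 8.86% as higher. The log2 differences were -0.65 for *Bdh1*, -0.61 for *Acat1*, -0.60 for *Acadl*, -0.54 for *Hadh*, -0.42 for *Ehhadh* and -0.22 for *Cpt2*. With size factors, which shifted the median of all genes by 0.21 in this comparison, *Bdh1*, *Acat1* and *Hadh* passed as lower and *Cpt1a* as higher (0.52, adjusted p = 0.0382). Of all genes tested, 21.3% passed as lower and 20.1% as higher with size factors. Of all genes that passed, 19.8% were higher as deposited and 48.6% with size factors. Without *Cdk1* Liv-/- liver replicate 3, 5 genes passed, and *Cpt2* did not (adjusted p = 0.242). The call of *Cpt2* was also lost without *Cdk1* Liv-/- hepatocyte replicate 1, 2 or 3 or *Cdk1* Liv-/- liver replicate 1 (adjusted p = 0.135, 0.113, 0.169 and 0.168).

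Ratios between enzymes within a library do not depend on how libraries are scaled. The 4 ratios given here were chosen after the values had been seen and are described without a test. The ratio of *Acat1* to *Acadm* was 2.18, 2.35 and 2.03 in WT hepatocytes and 0.791, 0.884 and 0.655 in *Cdk1* Liv-/- hepatocytes. In whole liver it was 2.17, 2.20 and 2.02 in WT and 1.24, 1.15 and 1.12 in *Cdk1* Liv-/-. WT hepatocytes and WT whole liver thus had similar ratios, and the *Cdk1* Liv-/- hepatocytes lay below the *Cdk1* Liv-/- whole liver libraries. The ratio of *Bdh1* to *Acat1* was 0.760, 0.710 and 0.705 in WT hepatocytes, 1.23, 1.26 and 1.23 in *Cdk1* Liv-/- hepatocytes, 0.771, 0.756 and 0.762 in WT whole liver and 1.32, 1.27 and 1.24 in *Cdk1* Liv-/- whole liver. This ratio separated the genotypes, with *Bdh1* below *Acat1* in every WT library and above it in every *Cdk1* Liv-/- library. Among the acyl-CoA dehydrogenases, the ratio of *Acadl* to *Acadm* was 0.807 to 0.950 in WT and 0.488 to 0.588 in *Cdk1* Liv-/- hepatocytes, and 0.917 to 0.955 in WT and 0.735 to 0.871 in *Cdk1* Liv-/- whole liver. The ratio of the mitochondrial *Hadh* to the peroxisomal *Ehhadh* was 3.47 to 4.48 in WT and 2.08 to 2.77 in *Cdk1* Liv-/- hepatocytes, and 3.86 to 5.23 in WT and 2.38 to 2.74 in *Cdk1* Liv-/- whole liver. The genotypes did not overlap in any of the 4 ratios in either compartment.

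**Figure D3:**
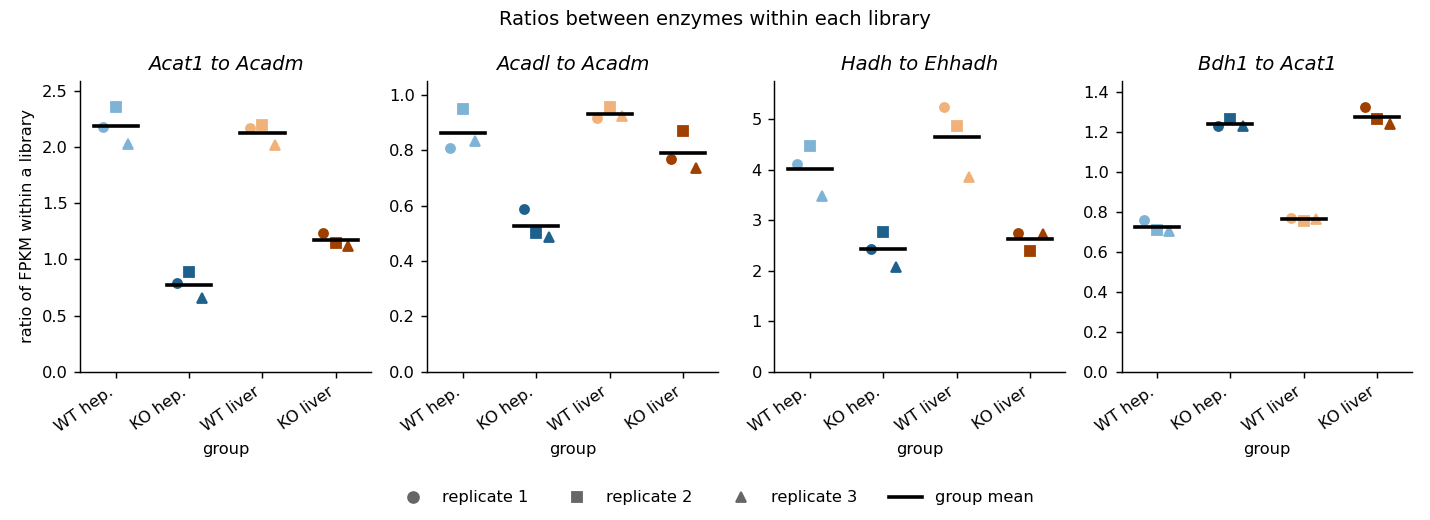
Ratio of the FPKM of 2 enzyme genes within each library (vertical axes, from 0) in the 4 groups (horizontal axes, KO stands for *Cdk1* Liv-/-), with 1 symbol per library and a line at the group mean of 3 libraries. The ratio of *Bdh1* to *Acat1* lies between 0.705 and 0.771 in the 6 WT libraries and between 1.23 and 1.32 in the 6 *Cdk1* Liv-/- libraries.

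The promoters of genes that fell in hepatocytes (*Hadh* and *Acadl*) and of genes that did not pass (*Acadm* and *Cpt1a*) are shown to let their sequence be compared. They were taken from RefSeq on GRCm38.p6, as 300 bases from 250 before to 50 after the annotated start, in the 5′ to 3′ direction of the gene. The windows are chr3:131272052-131272351 (minus strand) for *Hadh*, chr1:66863260-66863559 (minus strand) for *Acadl*, chr3:153944594-153944893 (minus strand) for *Acadm* and chr19:3323051-3323350 (plus strand) for *Cpt1a*. Capitals mark matches to the motifs listed after the sequences.
Hadh: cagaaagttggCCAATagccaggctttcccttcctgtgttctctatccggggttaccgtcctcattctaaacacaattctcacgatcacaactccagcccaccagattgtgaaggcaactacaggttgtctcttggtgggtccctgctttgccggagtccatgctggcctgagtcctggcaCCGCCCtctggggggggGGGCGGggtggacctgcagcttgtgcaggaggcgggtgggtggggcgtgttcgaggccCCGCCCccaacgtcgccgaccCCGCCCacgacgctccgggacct
Acadl: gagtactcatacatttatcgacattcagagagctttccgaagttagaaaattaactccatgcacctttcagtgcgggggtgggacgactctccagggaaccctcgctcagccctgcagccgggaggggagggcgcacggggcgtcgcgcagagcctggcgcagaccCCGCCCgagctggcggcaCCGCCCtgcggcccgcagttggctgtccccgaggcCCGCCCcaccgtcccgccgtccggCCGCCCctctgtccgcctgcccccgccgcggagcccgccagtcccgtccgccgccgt
Acadm: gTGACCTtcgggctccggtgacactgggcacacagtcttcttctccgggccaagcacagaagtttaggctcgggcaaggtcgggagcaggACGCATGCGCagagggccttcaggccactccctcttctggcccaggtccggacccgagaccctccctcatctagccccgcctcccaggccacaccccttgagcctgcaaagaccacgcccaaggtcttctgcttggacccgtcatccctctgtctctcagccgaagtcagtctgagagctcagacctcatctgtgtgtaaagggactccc
Cpt1a: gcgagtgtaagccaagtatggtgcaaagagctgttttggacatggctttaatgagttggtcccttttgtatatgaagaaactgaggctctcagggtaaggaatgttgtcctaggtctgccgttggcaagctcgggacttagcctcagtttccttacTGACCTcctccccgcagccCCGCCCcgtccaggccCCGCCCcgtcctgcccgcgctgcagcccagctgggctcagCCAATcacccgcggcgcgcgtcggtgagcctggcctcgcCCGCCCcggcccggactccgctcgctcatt

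Of the 8 genes, 7 matched an entry, with 8 windows in all since *Bdh1* has 2, and *Acat1* was not matched. The windows were searched on both strands for AGGTCA, the hexamer that nuclear receptors recognise, for TCAAGGTCA, the extended form of oestrogen-related receptors, and for AGGTCANAGGTCA with up to 2 mismatches, the direct repeat of PPAR and RXR. Both longer motifs contain the hexamer. GCGCATGCGC with up to 1 mismatch (NRF1), GGGCGG (the GC box) and CCAAT were searched as well. *Acadm* held the hexamer at its 5′ end and an NRF1 match with 1 mismatch but no GC box, while *Cpt1a* held the hexamer, 3 GC boxes and 1 CCAAT. *Acadl* held 4 GC boxes, and *Hadh* 4 GC boxes and 1 CCAAT. Among the windows not shown, *Cpt2* held 3 GC boxes, *Ehhadh* 2 GC boxes and 1 CCAAT, and of the 2 windows of *Bdh1* 1 held a GC box and the other held no match. Neither the oestrogen-related receptor motif nor the direct repeat was found in the 8 windows. Over the 32851 promoters of the same length, the hexamer was in 16.3%, the oestrogen-related receptor motif in 0.423%, the direct repeat in 3.86%, the NRF1 motif in 6.33%, the GC box in 35.7% and CCAAT in 37.4%. The share of G and C was 63.0% for *Hadh*, 70.3% for *Acadl* and 62.3% for both *Acadm* and *Cpt1a*, against a median of 52.7% over all promoters. A match describes these letters in these windows and not a bound site.

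The other genes of the pathway were described by lists for its successive steps, 68 genes in all, of which 66 were tested and 58 of these were not among the 8 enzymes. The lists too were chosen with earlier results of these data known, so their counts are descriptive. In hepatocytes, 20 of the 66 passed as lower (30.3%) and 6 as higher (9.09%), with a median log2 fold change of -0.12, against 6.61%, 12.1% and 0.049 for all genes. In whole liver 15 passed as lower (22.7%) and 21 as higher (31.8%), with a median of 0.094, which is -0.088 relative to the median of all genes. With size factors, 20 were lower and 4 higher in hepatocytes (8.13% and 9.83% of all genes), and 25 lower and 8 higher in whole liver (16.4% and 17.9% of all genes). The counts rested in part on single WT libraries, with 13 in place of 26 genes passing in hepatocytes without WT replicate 1, 15 without WT replicate 2, and 21 in place of 36 in whole liver without WT replicate 1. Without the libraries that stood apart, 18 passed in hepatocytes (WT replicate 3 left out) and 29 in whole liver (*Cdk1* Liv-/- replicate 3 left out). Of the 22 genes outside the 8 enzymes that passed in hepatocytes, 9 kept their call in every alternative and 12 lost it with 1 library left out. Of the 33 in whole liver, these counts were 10 and 17.

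The mitochondrial spiral after the first dehydrogenation was lower in hepatocytes almost throughout. Of 9 genes for hydration, the second dehydrogenation, thiolysis and double-bond isomerisation, 8 fell in *Cdk1* Liv-/- hepatocytes (8 also with size factors), where 6.61% of all genes fell, with a median of -0.41 against 0.049 for all genes. They were *Hadh*, *Eci1* (-0.68, adjusted p = 0.0251 from limma) and *Ech1* (-0.58, adjusted p = 0.0527), which reposition double bonds of unsaturated chains, the thiolase *Acaa2* (-0.47, adjusted p = 0.0147), *Hadhb* (-0.41, adjusted p = 0.0530), *Decr1* (-0.40, adjusted p = 0.0410), the hydratase *Echs1* (-0.39, adjusted p = 0.0308) and *Hadha* (-0.38, adjusted p = 0.0161). *Hadha* and *Hadhb* together form the trifunctional protein for long chains. *Eci2* was the exception, at -0.14 (adjusted p = 0.764). The calls of *Eci1*, *Acaa2* and *Hadha* held in all 16 alternatives. Those of *Ech1* and *Hadhb* were lost without WT hepatocyte replicate 1, 2 or 3, that of *Decr1* without WT replicate 1 or 2 and that of *Echs1* without WT replicate 1, with adjusted p-values up to 0.146, 0.130, 0.128 and 0.107 over their alternatives, and that of *Hadhb* also without *Cdk1* Liv-/- replicate 3.

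In whole liver, where 7.53% of all genes passed as lower, so did 3 of these 9 genes, *Echs1* (-0.37, adjusted p = 0.0308 from limma), *Hadh* and *Eci1* (-0.20, adjusted p = 0.0967). With size factors 5 did, where 16.4% of all genes passed as lower. *Echs1* lost its call without WT liver replicate 1 (adjusted p = 0.104), and *Eci1* without any 1 library other than that one (adjusted p up to 0.233 over the alternatives). *Hadha* was at 180.5, 193 and 215 FPKM in WT and at 199, 216 and 194 FPKM in *Cdk1* Liv-/- whole liver, while in hepatocytes it was at 201, 204 and 211 FPKM in WT and at 158, 158 and 156 FPKM in *Cdk1* Liv-/-. Its 3 *Cdk1* Liv-/- hepatocyte libraries were the lowest of the 12. The log2 fold change in whole liver was 0.05 for *Hadha* (adjusted p = 0.647) and 0.06 for *Hadhb* (adjusted p = 0.707). The difference between the compartments passed for 4 of the 9 genes, all more negative in hepatocytes (7.49% of all genes), and for 0 of them with size factors in limma, where 2 of the pathway's 66 genes passed and 13 had an unadjusted p under 0.05.

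Among 11 acyl-CoA dehydrogenases and electron transfer flavoprotein genes, 5 fell in hepatocytes (5 also with size factors), where 6.61% of all genes fell, with a median of -0.31 against 0.049 for all genes. Beside *Acadl* they were *Etfdh* (-0.52, adjusted p = 0.0224 from limma), *Acadvl* (-0.49, adjusted p = 0.0187), *Acads* (-0.41, adjusted p = 0.0240) and *Etfa* (-0.34, adjusted p = 0.0563). *Acadvl* and *Acads* act on very long and short chains, and *Etfa* and *Etfdh* pass the electrons on to ubiquinone. The calls of *Acadvl* and *Etfdh* held in all 16 alternatives, that of *Acads* in 15, and that of *Etfa* in 10, being lost without any 1 of the hepatocyte libraries other than *Cdk1* Liv-/- replicate 1 (adjusted p up to 0.154 over the alternatives). In whole liver, where 7.53% of all genes passed as lower and 38.0% as higher, 4 of the 11 fell, namely *Acadvl* (-0.28, adjusted p = 0.0191), *Etfa* (-0.29, adjusted p = 0.0221), *Etfb* (-0.21, adjusted p = 0.0476) and *Acad10* (-0.37, adjusted p = 0.0407), and *Acad12* rose (0.44, adjusted p = 0.0818). With size factors 7 fell, where 16.4% of all genes did, and *Acad12* did not pass (adjusted p = 0.294). *Acad10* lost its call without WT liver replicate 1 or 3 or *Cdk1* Liv-/- liver replicate 3, *Etfb* without WT liver replicate 1 or 2, and *Acad12* without WT liver replicate 1 or 3 or *Cdk1* Liv-/- liver replicate 1 or 2, with adjusted p-values up to 0.111, 0.154 and 0.294 over their alternatives.

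Of 9 genes for fatty acid uptake and activation, *Acsl1*, the main acyl-CoA synthetase of the liver, fell in hepatocytes (-0.64, adjusted p = 0.0138 from limma) and in whole liver (-0.57, adjusted p = 0.00858), and kept both calls in all alternatives. *Acsl4*, which prefers arachidonate, rose in both (1.25, adjusted p = 0.0564, and 0.98, adjusted p = 0.0249), although its hepatocyte call held in only 8 of 16 alternatives and was lost without any 1 of the hepatocyte libraries other than *Cdk1* Liv-/- replicate 1 (adjusted p up to 0.157). In whole liver the list had 3 genes higher and 3 lower (38.0% and 7.53% of all genes), and in hepatocytes 1 each (12.1% and 6.61% of all genes). In whole liver 2 were higher and 3 lower with size factors (17.9% and 16.4% of all genes). With every library brought to 1 common total, 6 were higher and 3 lower there, against 39.4% and 21.2% of the 66 pathway genes. The median log2 fold change of all genes was then 0.21 in whole liver, and their shares are not given here. Those that passed in whole liver as deposited included *Cd36* (1.03, adjusted p = 0.0733), a fatty acid translocase, and the bile acid and fatty acid ligase *Slc27a5* (-0.64, adjusted p = 0.0663). Both calls were lost without WT liver replicate 1 or 2 or *Cdk1* Liv-/- liver replicate 3, and that of *Cd36* also without *Cdk1* Liv-/- liver replicate 2 (adjusted p up to 0.200 and 0.181 over the alternatives). Of 7 genes of the carnitine shuttle, 0 passed as lower in limma in either compartment. The carnitine transporter *Slc22a5* passed as higher in hepatocytes (0.61, adjusted p = 0.0581), and *Slc25a20*, *Slc22a5* (0.35, adjusted p = 0.0409) and *Cpt1c* (0.53, adjusted p = 0.0234) in whole liver, where 3 of 7 is near the 38.0% of all genes. *Slc22a5* lost its call in hepatocytes without any 1 library other than *Cdk1* Liv-/- replicate 2 (adjusted p up to 0.153), and in whole liver without WT replicate 1. With size factors 1 of these 3 remained in whole liver, and over the 66 pathway genes 35 had an unadjusted p under 0.05 there.

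The calls of peroxisomal genes in whole liver depended on the scaling. Of 16 genes, 8 passed as higher and 2 as lower in whole liver as deposited, against 38.0% and 7.53% of all genes, with a median of 0.21, or 0.032 relative to all genes. With size factors only *Ehhadh* passed as higher and 6 as lower, where 17.9% of all genes were higher and 16.4% lower. *Crot*, which hands shortened chains on to carnitine, had a log2 fold change of 0.38 (adjusted p = 0.0194 from limma) as deposited and 0.16 (adjusted p = 0.289) with size factors. In hepatocytes 1 gene of the list was higher, *Acox3* (0.37, adjusted p = 0.0746), and 1 lower, the peroxisomal transporter *Abcd2*. The call of *Acox3* was lost without any of the 6 hepatocyte libraries (adjusted p up to 0.204). *Abcd2* was at 31.6, 29.1 and 25.2 FPKM in WT and at 12.7, 11.6 and 12.8 FPKM in *Cdk1* Liv-/- hepatocytes, and at 20.7, 24.4 and 23.5 FPKM in WT and 18.3, 17.0 and 15.9 FPKM in *Cdk1* Liv-/- whole liver. It was lower in every *Cdk1* Liv-/- library than in every WT library of its compartment. *Abcd2* fell by 1.17 on the log2 scale in hepatocytes (adjusted p = 0.00308) and by 0.41 in whole liver (adjusted p = 0.0176), in all 16 alternatives of each.

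**Figure D4:**
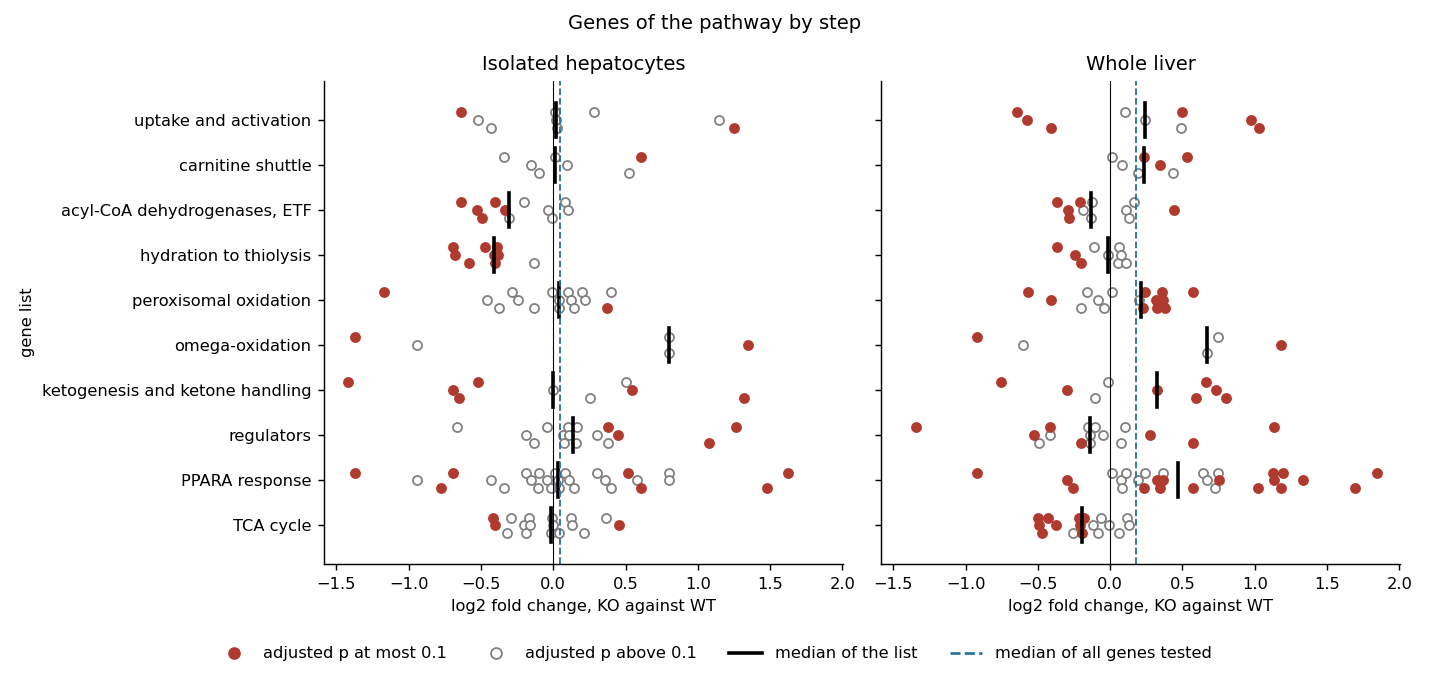
Log2 fold change between *Cdk1* Liv-/- (KO) and WT (horizontal axes) of the genes of each list (vertical axis) in isolated hepatocytes and whole liver, with 1 circle per gene, filled for an adjusted p of at most 0.1 in limma, a black bar at the median of the list and a dashed line at the median of all genes tested. The median for hydration to thiolysis is -0.41 in hepatocytes and -0.016 in whole liver.

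Omega oxidation starts the breakdown from the other chain end, through cytochromes. Of 5 genes tested, 1 was higher and 1 lower in each compartment (12.1% and 6.61% of all genes in hepatocytes, 38.0% and 7.53% in whole liver). *Cyp4f14* rose (1.35, adjusted p = 0.0134 from limma) and *Cyp4a32* fell (-1.37, adjusted p = 0.0589) in hepatocytes, and *Cyp4a10* rose (1.18, adjusted p = 0.0310) and *Cyp4a32* fell (-0.92, adjusted p = 0.0624) in whole liver. *Cyp4a32* lost its call in hepatocytes without WT replicate 1, 2 or 3 or *Cdk1* Liv-/- replicate 3, and in whole liver without WT replicate 2 or 3 or *Cdk1* Liv-/- replicate 1 or 2 (adjusted p up to 0.166 in each). The Cyp4a genes are near-identical copies, so the split of reads between them is uncertain. Of 9 genes of ketogenesis and ketone handling, 4 fell, *Acat1* and *Bdh1* among them, and 2 rose in hepatocytes, where 6.61% of all genes fell and 12.1% rose. The genes that rose were *Aacs* (1.32, adjusted p = 0.0197), which activates acetoacetate for lipid synthesis in the cytosol, and *Bdh2* (0.55, adjusted p = 0.0970), whose call was lost without any of the 6 hepatocyte libraries (adjusted p up to 0.230). In whole liver 2 fell, *Acat1* among them, and 5 rose (7.53% and 38.0% of all genes), including *Aacs* (0.80, adjusted p = 0.0214) and the monocarboxylate transporters *Slc16a6* (0.73, adjusted p = 0.0148) and *Slc16a1* (0.66, adjusted p = 0.0314), of which *Slc16a6* exports ketone bodies. With size factors 3 fell and 3 rose in whole liver, where 16.4% of all genes passed as lower and 17.9% as higher. *Slc16a1* then did not pass (0.44, adjusted p = 0.118).

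Regulators were described next to the enzymes. *Ppara* was at 51.0, 26.7 and 22.1 FPKM in WT and at 6.43, 27.2 and 40.6 FPKM in *Cdk1* Liv-/- hepatocytes, and at 19.9, 21.9 and 23.2 FPKM in WT and at 5.85, 11.9 and 7.92 FPKM in *Cdk1* Liv-/- whole liver. The hepatocyte libraries varied widely in both genotypes, whereas in whole liver the genotypes did not overlap. *Ppara* fell by 1.34 on the log2 scale in whole liver (adjusted p = 0.0113 from limma), with adjusted p-values up to 0.101 over the alternatives. In hepatocytes the log2 fold change was -0.67 (adjusted p = 0.563). The coactivator *Ppargc1a* did not pass in either compartment (0.10, adjusted p = 0.696, and -0.41, adjusted p = 0.230), and *Ppargc1b* fell in whole liver (-0.53, adjusted p = 0.0168). Of 16 regulators, 4 passed as higher in hepatocytes (12.1% of all genes), led by *Lpin1* (1.27, adjusted p = 0.0971) and *Acacb* (1.08, adjusted p = 0.0606), whose product makes the malonyl-CoA that inhibits *Cpt1a*. With size factors 1 was higher and 1 lower (9.83% and 8.13% of all genes). The calls of *Lpin1* and *Acacb* were lost without each WT hepatocyte library in turn and without some *Cdk1* Liv-/- libraries (replicates 1 and 3 for *Lpin1*, replicates 2 and 3 for *Acacb*), with adjusted p-values up to 0.219 and 0.151. In whole liver 3 were higher and 4 lower (38.0% and 7.53% of all genes), and 2 and 9 with size factors (17.9% and 16.4% of all genes). *Fgf21*, a hormone made by liver under *Ppara*, was among those higher, at 1.13 (adjusted p = 0.00115).

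Of 28 genes that respond to PPARA, 14 rose and 3 fell in whole liver, where 38.0% and 7.53% of all genes passed, with a median of 0.47, or 0.29 relative to all genes (8 and 3 with size factors, where 17.9% and 16.4% of all genes passed, median 0.25). Those with the largest rise were *Vnn1* (1.84, adjusted p = 0.00115 from limma) and *Acot1* (1.69, adjusted p = 0.0130), and *Plin2*, which coats lipid droplets, rose by 1.12 (adjusted p = 0.00293). In hepatocytes 4 rose and 3 fell, close to the 12.1% and 6.61% of all genes, with a median of 0.036, near that of all genes. Those that rose included *Acot1* (1.63, adjusted p = 0.0625), *Vnn1* (1.48, adjusted p = 0.0646) and *Plin2* (0.51, adjusted p = 0.0283). The hepatocyte call of *Plin2* held in all 16 alternatives, that of *Acot1* in 10 and that of *Vnn1* in 8. The list shares *Cpt1a*, *Cpt2*, *Acadm* and *Ehhadh* with the 8 enzymes, and of these *Ehhadh* in whole liver was the only one to pass in either compartment. Of 17 genes of the tricarboxylic acid cycle, which takes up the remaining acetyl-CoA, 9 fell in whole liver (7.53% of all genes), with a median of -0.19, or -0.37 relative to all genes (14 fell with size factors, against 16.4% of all genes). In hepatocytes 2 fell, *Suclg1* and *Sdhd*, and 1 rose, *Fh1*, near the 6.61% and 12.1% of all genes, and each of these calls was lost without each WT hepatocyte library in turn (adjusted p up to 0.218, 0.152 and 0.174 over the alternatives).

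For each of the 8 enzymes, the genes with the most similar profile over the 12 libraries were found among 7664 genes with a mean of at least 5 FPKM, by the root mean square difference of centred log2(FPKM + 0.5). *Acadl* was closest to *Eci1* (0.079) and *Ech1* (0.087), both genes of beta-oxidation. *Hadh* was closest to *Ebpl* (0.065) and *H2-Ke6* (0.087), and *Bdh1* to *Cpox* (0.064), an enzyme of haem synthesis, and *Elovl5* (0.11), a fatty acid elongase. *Acat1* had *Fam210b* (0.12) and *Spp2* (0.19) as its nearest genes. The nearest genes were *Tapt1* (0.082) and *Cebpz* (0.10) for *Cpt1a*, *Mrps28* (0.046) and *Smim7* (0.061) for *Cpt2*, *Pttg1ip* (0.081) and *Bfar* (0.081) for *Acadm*, and *Tmem248* (0.12) and *Paip1* (0.12) for *Ehhadh*. Among the 8 enzymes, *Hadh* and *Bdh1* (0.10) and *Acadl* and *Hadh* (0.12) were the closest pairs, and *Ehhadh* and *Acat1* (0.72) the farthest.

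Markers of cell types moved with the genotype as well. The summed FPKM of 14 hepatocyte markers, of which *Alb* was the most abundant, was 110373, 122200 and 116556 in WT and 77774, 79521 and 75165 in *Cdk1* Liv-/- hepatocytes. For whole liver the sums were 115526, 113647 and 117529 in WT and 88959, 82188 and 86844 in *Cdk1* Liv-/-. The sum was thus lower in every *Cdk1* Liv-/- library, and 3 of the 14 genes passed as lower and 2 as higher in hepatocytes, and 8 as lower in whole liver. For this and the other marker lists, the shares of all genes were 6.61% lower and 12.1% higher in hepatocytes, and 7.53% lower and 38.0% higher in whole liver. In hepatocytes, 11 of 12 sinusoidal endothelial markers passed as lower, and their sum, led by *Stab1*, was 182, 124 and 350.5 FPKM in WT and 87.1, 56.0 and 65.8 FPKM in *Cdk1* Liv-/-. For 12 Kupffer cell and macrophage markers, led by *Cd5l*, the sum was 385, 209 and 705 FPKM in WT and 235, 175 and 153 FPKM in *Cdk1* Liv-/- hepatocytes. Of these markers, 1 was lower as deposited and 5 with size factors, where 8.13% of all genes were lower. In both lists WT hepatocyte replicate 3 had the highest sum of the hepatocyte libraries. Stellate cell and fibroblast markers, led by *Col3a1*, averaged a sum of 343 FPKM in WT hepatocytes against 141 FPKM in *Cdk1* Liv-/- hepatocytes, with 3 of 12 genes lower, and erythroid markers, led by *Hbb-bs*, of 280.1 and 66.0 FPKM, with 2 of 10 lower. Without WT hepatocyte replicate 3 the WT means of these lists were 216 and 128 FPKM. Cholangiocyte markers, led by *Spp1*, went the other way, from 21.7 to 101 FPKM, with 5 of 6 tested genes higher. *Spp1* alone made up 20.1 and 92.8 FPKM of these mean sums. In *Cdk1* Liv-/- hepatocytes the next highest mean of the list was 3.70 FPKM, for *Cldn7*. *Krt19*, *Krt7* and *Epcam* were at means of 0.55, 0.13 and 0.83 FPKM there. Monocyte and neutrophil markers averaged 26.8 FPKM in WT hepatocytes and 19.0 FPKM in those of *Cdk1* Liv-/-, with 1 of 10 genes higher, and without WT hepatocyte replicate 3 the WT mean was 14.015 FPKM, below that of *Cdk1* Liv-/-.

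In whole liver, monocyte and neutrophil markers, led by *S100a9*, had a mean sum of 65.9 FPKM in WT against 231 FPKM in *Cdk1* Liv-/-, with 8 of 10 genes higher. The mean sums were 592 and 802 FPKM for Kupffer cell and macrophage markers (5 of 12 higher), 623 and 1087 FPKM for stellate cell and fibroblast markers (6 of 12 higher and 1 lower), 56.9 and 233 FPKM for cholangiocyte markers (5 of 6 higher), 203 and 236 FPKM for endothelial markers (2 of 12 higher) and 1503 and 1464 FPKM for erythroid markers (3 of 10 lower), where 38.0% of all genes passed as higher and 7.53% as lower. With size factors 2 Kupffer cell and macrophage, 7 monocyte and neutrophil, 6 stellate cell and fibroblast and 3 cholangiocyte markers were higher, and none of the endothelial markers. With this scaling 17.9% of all genes passed as higher. B cell markers, led by *Cd79b*, and T and NK cell markers, led by *Gzma*, summed to at most 21.3 FPKM in any library. Their means were 16.8 and 15.8 FPKM in WT whole liver, 10.8 and 11.1 FPKM in *Cdk1* Liv-/- whole liver, 5.42 and 5.33 FPKM in WT hepatocytes (3.31 and 4.57 FPKM without replicate 3), and 1.23 and 1.62 FPKM in *Cdk1* Liv-/- hepatocytes. Adipocyte and muscle markers summed to 15.1 FPKM in *Cdk1* Liv-/- hepatocyte replicate 1, where *Acta1* (7.40 FPKM), *Ckm* (3.46 FPKM) and *Myl1* (2.84 FPKM) made up most of the sum, and to at most 4.28 FPKM in the other libraries, and *Ucp1* was the only marker gene at 0 in all 12 libraries. The part of these shifts in the levels of the 8 enzymes was not tested.

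**Figure D5:**
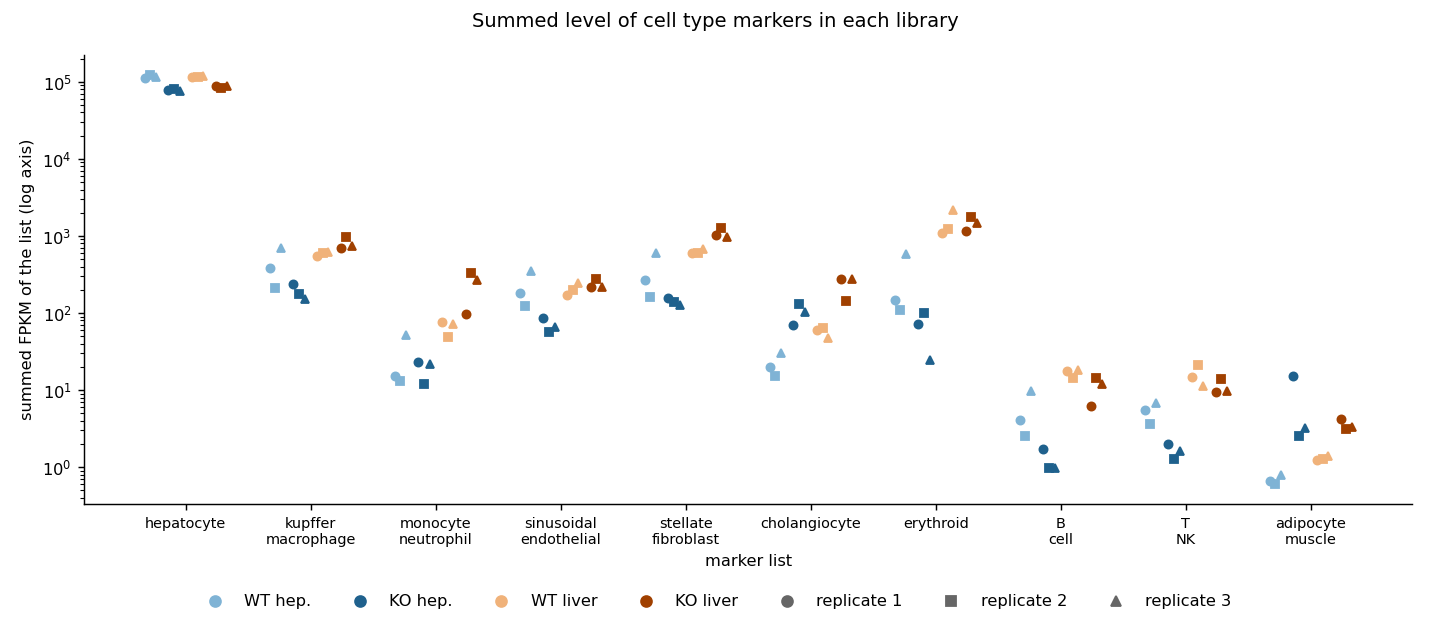
Summed FPKM of 10 cell type marker lists in each library (vertical axis, log scale) by list (horizontal axis), with colours for the 4 groups (KO stands for *Cdk1* Liv-/-) and shapes for the replicates. Hepatocyte markers sum to 110373 to 122200 FPKM in WT and 75165 to 88959 FPKM in *Cdk1* Liv-/- libraries, and WT hepatocyte replicate 3 has the highest endothelial sum, at 350.5 FPKM.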

How the data were processed

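For 12 samples of polyadenylated RNA, single-end reads had 75 bp. The deposited FPKM values were made by the authors with STAR and RSEM 1.2.31 on mm10, with no normalization between libraries. For the annotation release and the STAR version, the sources used here give nothing. Log2(FPKM + 0.5) was fitted with limma 3.58.1 in R 4.3.3 (trend, moderated t-test, two-sided) for genes with a mean of at least 0.1 FPKM, with Benjamini-Hochberg adjustment over all tested genes and a threshold of 0.1. The p-values measure only the spread between these samples, as labels do not say whether they are separate animals; the study's methods state in general that at least 3 biological replicates were used. Members and lists were chosen with earlier results of these data known. From each list, up to 2 genes with the highest and 2 with the lowest fold change that passed were named, beside a fixed set; some genes counted in the lists are not reported here by name. Alternatives changed the pseudocount, filter, scaling (median-ratio size factors, same sum), variance, threshold and fit, or left out 1 library. Counts of the alternatives in which a call held leave out the changed thresholds.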

Additional observations from a re-analysis of the deposited data

Results flagged for a closer look

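The genotype effect differed between hepatocytes and whole liver by the interaction test (limma, adjusted p of at most 0.1) for 12 genes described here. Of the 8 enzymes, these were *Acat1* (-0.67, adjusted p = 0.0477), *Hadh* (-0.45, adjusted p = 0.0562) and *Bdh1* (-0.63, adjusted p = 0.0602), each given as the log2 fold change in hepatocytes minus that in whole liver. Of the other genes, those with a more negative value in hepatocytes were *Hadha* (-0.43, adjusted p = 0.0582), *Etfdh* (-0.40, adjusted p = 0.0752), *Decr1* (-0.47, adjusted p = 0.0540), *Acaa2* (-0.46, adjusted p = 0.0691), *Abcd2* (-0.76, adjusted p = 0.0362), *Plin2* (-0.61, adjusted p = 0.0700) and the fatty acid binding protein gene *Fabp1* (-0.67, adjusted p = 0.0647). Those with a more positive value were *Cyp4f14* (1.95, adjusted p = 0.0521) and *Hnf4a* (0.58, adjusted p = 0.0681). With FPKM divided by size factors, 3 of the 12 passed, namely *Abcd2* (-0.62, adjusted p = 0.0650), *Cyp4f14* (2.09, adjusted p = 0.0461) and *Hnf4a* (0.73, adjusted p = 0.0563). Without WT liver replicate 1, *Abcd2* (adjusted p = 0.105) and *Cyp4f14* (adjusted p = 0.140) did not pass either. Of these 3 genes *Hnf4a* was the least stable (adjusted p up to 0.159 over its alternatives). It lost its call without WT hepatocyte replicate 3, WT liver replicate 1, 2 or 3 or *Cdk1* Liv-/- liver replicate 2 or 3. With 1 of the 12 libraries left out, *Etfdh* lost its call in 9 cases, *Fabp1* and *Plin2* in 7 each and *Acaa2* in 6. *Hadha* lost it in 3 cases and *Decr1* in 2.

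*Cyp4f14* was at 18.3, 13.3 and 12.7 FPKM in WT and at 34.8, 48.8 and 31.9 FPKM in *Cdk1* Liv-/- hepatocytes, and at 19.7, 14.5 and 15.3 FPKM in WT and at 14.6, 5.78 and 13.8 FPKM in *Cdk1* Liv-/- whole liver.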

How the results depend on the processing

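*Acat1* in hepatocytes and whole liver, *Hadh* and *Bdh1* in hepatocytes and *Ehhadh* in whole liver kept direction and call in all 16 alternatives. These leave out the stricter thresholds given below. *Acadl* in hepatocytes lost its call with no filter (adjusted p = 0.101) and with the own spread of each gene (adjusted p = 0.122), and its adjusted p ranged from 0.00339 to 0.122 over the alternatives. *Hadh* in whole liver lost its call with no filter (adjusted p = 0.101) and with the own spread (adjusted p = 0.1004), with a range of 0.0151 to 0.163. Estimated reads were at least 499 for each of the 8 genes in every library. Where a value changed, the cause was not tested.

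Stricter thresholds lowered the counts by their construction. With a log2 fold change of at least 1 as well, 1 of the 8 enzymes, 6 pathway genes, 730 genes as higher and 377 as lower passed in hepatocytes, and 0, 2, 798 and 174 in whole liver, while 0 of the 8 enzymes passed for the difference and 0 between the compartments in *Cdk1* Liv-/-. With an adjusted p of at most 0.05, 17 pathway genes, 1303 genes as higher and 527 as lower passed in hepatocytes, and 1 of the 8 enzymes for the difference. In hepatocytes, 714 genes passed as lower with no filter, and 1352 as higher and 568 as lower with the own spread of each gene. With all 12 libraries in 1 fit these counts were 3434 and 2072. With a mean of at least 1 FPKM or the same sum, 5 of the 8 enzymes passed for the difference, and with size factors 0. For the first 2 of these settings the share of all genes is not given here. In whole liver with size factors, 3107 genes passed as higher and 2844 as lower.

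The values that reversed had not passed, apart from *Cpt2* between the *Cdk1* Liv-/- compartments, which had passed at -0.22. With size factors the reversed log2 fold changes were *Cpt1a* (-0.065) and *Ehhadh* (-0.039) in hepatocytes, *Cpt1a* (-0.21), *Cpt2* (-0.14) and *Acadm* (-0.11) in whole liver, *Cpt1a* (0.14) and *Acadm* (0.12) for the difference, *Cpt2* (0.093), *Acadl* (0.030), *Hadh* (0.041) and *Bdh1* (0.11) between the WT compartments, and *Cpt2* (0.055) and *Acadm* (0.26) between the *Cdk1* Liv-/- compartments. With the same sum they were *Bdh1* in whole liver (0.018), *Cpt2* (0.0038) and *Bdh1* (0.017) between the WT compartments and *Acadm* (0.0074) between the *Cdk1* Liv-/- compartments.

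With 1 library left out, the counts ranged from 13 to 24 pathway genes, 1157 to 1622 genes as higher and 402 to 1224 as lower in hepatocytes, and from 21 to 34 pathway genes and 859 to 1296 genes as lower in whole liver. Of the 8 enzymes, 0 to 4 passed for the difference and 0 to 1 between the WT compartments. Log2 fold changes ranged from -0.10 to 0.10 for *Cpt1a* and -0.056 to 0.15 for *Ehhadh* in hepatocytes, from -0.063 to 0.065 for *Cpt1a* and -0.10 to 0.086 for *Bdh1* in whole liver, and from -0.12 to 0.088 for *Cpt1a* and -0.11 to 0.084 for *Acadm* for the difference. Between the WT compartments they ranged from -0.035 to 0.051 for *Acadm*, -0.099 to 0.024 for *Cpt2* and -0.083 to 0.055 for *Bdh1*, and between the *Cdk1* Liv-/- compartments from -0.10 to 0.098 for *Acadm*.

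The libraries share only replicate numbers. With a replicate block, 3 of the 8 enzymes, 14 pathway genes, 1048 genes as higher and 408 as lower passed in hepatocytes, and 2 of the 8 enzymes in whole liver, where *Hadh* had an adjusted p of 0.145 (*Acadl* in hepatocytes 0.117). To compare replicate numbers, the mean of its group was first subtracted from each library, gene by gene, on the log scale. Correlations of these deviations were taken between libraries of different groups. They lay between -0.317 and 0.239 for libraries with the same number, and between -0.223 and 0.265 for those with other numbers.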
